A study of Mus musculus with 10 samples.

Results

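Transcripts of neurons and of Schwann cells were followed through the bulk RNA-seq libraries of the anterior fontanelle (AF), the fibrous gap between the frontal and parietal bones of the developing skull. Members were taken by symbol: the neuronal transcripts Tubb3, Stmn2, Map2, Elavl3 and Gap43, and the Schwann cell and myelin transcripts Sox10, Mbp and S100b. All 8 were found among the 23080 genes listed, and all 8 passed the filter on low counts, which kept 16267 genes. Their names mark a cell type by what is known of them. The rule that picks them uses symbols and no measured value, but the symbols were chosen with earlier results of these data known.

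The tissue was excised at E18.5, late in mouse gestation, with its bone and connective tissue, and skin and brain were excluded. Of the 10 mouse libraries, 5 were labelled WT and 5 Wnt1-Cre; Fgfr2fl/fl, the latter meaning that both floxed copies of the receptor gene Fgfr2 are recombined by Cre in neural crest cells. The labels give 5 animals for each group and do not say whether WT animals carried the Cre transgene or floxed alleles. Wnt1-Cre recombines the whole neural crest lineage, which forms Schwann cells and many cranial sensory neurons as well as the suture mesenchyme, so those cells would carry the deletion too, whereas neurons of the cerebral cortex do not come from the neural crest.

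The targeted gene was read first. Fgfr2 was at 176 to 234 CPM (the share of a library's counts taken by a gene, scaled by TMM) in the 5 libraries labelled WT and at 273 to 356 CPM in the 5 labelled mutant, so every library labelled mutant was above every library labelled WT. The difference was 0.67 log2 units with an SE of 0.090 (adjusted p = 0.0487, edgeR quasi-likelihood test). A gene count adds intact and recombined transcripts, and 314 exon bases of Fgfr2 are shared with Ctbp2. Because Fgfr2 is not lower in the libraries labelled mutant, libraries are called control-labelled 1 to 5 and mutant-labelled 1 to 5 throughout, and directions rest on these labels. Genes of osteoblasts, the bone-forming cells, were lower by these labels, with all 13 listed fitted below 0 and 8 of them at an unadjusted p under 0.05 in edgeR, against 3.82% of all genes on that side and 0 at an adjusted one. Each library held 20774667 to 28515434 counts, of which a single ribosomal RNA gene took 18.6% to 33.5%.

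Neurons lengthen axons through microtubules, and several members serve this. Tubb3 is a neuron-enriched beta-tubulin, Map2 binds microtubules in dendrites, Stmn2 binds tubulin in growing axons, and Gap43 is a membrane protein of growth cones. Elavl3 is an RNA-binding protein of postmitotic neurons. All of these are made by central and peripheral neurons alike, so the members by themselves do not separate brain from nerve. Sox10 is a transcription factor of neural crest cells, Schwann cells, melanocytes and oligodendrocytes, Mbp is a structural protein of compact myelin, and S100b is a calcium-binding protein of glia that cartilage cells also make. Schwann cells accompany sensory and autonomic axons, and such nerves run in the dura and periosteum.

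Among the RefSeq promoters of GRCm38.p6, 4 of the 8 members had an entry: Tubb3, Map2, Elavl3 and S100b. The 250 bases before the start are printed for Elavl3, which moved with the other neuronal members between libraries, and for S100b, which did not. The Elavl3 stretch is chr9:22052024-22052273 on the - strand, and the S100b stretch is chr10:76253586-76253835 on the + strand. Both are written 5′ to 3′ with motif matches in capitals.
Elavl3: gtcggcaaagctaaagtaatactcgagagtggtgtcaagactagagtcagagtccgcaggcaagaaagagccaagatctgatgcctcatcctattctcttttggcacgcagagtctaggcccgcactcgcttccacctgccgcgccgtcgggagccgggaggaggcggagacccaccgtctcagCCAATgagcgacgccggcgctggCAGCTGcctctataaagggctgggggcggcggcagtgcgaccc
S100b: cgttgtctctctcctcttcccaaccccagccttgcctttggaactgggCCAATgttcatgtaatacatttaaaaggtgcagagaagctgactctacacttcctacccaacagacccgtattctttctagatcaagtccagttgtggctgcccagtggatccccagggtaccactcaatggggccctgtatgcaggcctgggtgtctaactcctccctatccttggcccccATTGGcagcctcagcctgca
Letters were searched on both strands in the same 250 bases of 32851 promoters. CAGCTG, an E-box of the kind bound by basic helix-loop-helix factors, occurred once before Elavl3 and in 13% of all promoters. CCAAT, the box bound by NF-Y, occurred 1 time before Elavl3, 1 time before Tubb3 and 2 times before S100b, and in 33.8% of all promoters. CAGCACC, a part of the element bound by the repressor REST, occurred 1 time before Tubb3 and in 5.73% of all. ACAAAG, a core bound by SOX proteins, was found in 16.5% of promoters and CAGATG in 14.4%, and neither was found before any of these 4 members. Before Map2 none of the 5 motifs was found. GC content was 81.2% for Map2, 68.0% for Tubb3, 61.6% for Elavl3 and 53.6% for S100b, against a median of 52.4%. These matches describe letters and not binding sites.

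All 5 neuronal members were highest in the same library, mutant-labelled 2, and 4 of them were second highest in mutant-labelled 4. Tubb3 was at 25.5, 43.2, 42.5, 16.3 and 38.7 CPM in control-labelled 1 to 5 and at 34.0, 175, 16.9, 65.7 and 38.5 CPM in mutant-labelled 1 to 5. Apart from mutant-labelled 2 and 4, the mutant-labelled values of Tubb3 lay within the control-labelled range. Its highest library was 10.8 times its lowest, the widest span of the 8 members.

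Stmn2 was at 21.1, 25.3, 29.2, 12.2 and 29.3 CPM in the control-labelled libraries and at 29.2, 93.5, 11.5, 43.4 and 25.2 CPM in the mutant-labelled ones. For Map2 the control-labelled values were 31.8, 31.2, 27.2, 14.3 and 32.6 CPM and the mutant-labelled values 20.6, 129.7, 15.7, 44.9 and 29.3 CPM. In both genes, as in Tubb3, mutant-labelled 2 and 4 were the 2 highest libraries and control-labelled 4 and mutant-labelled 3 the 2 lowest. Elavl3 stood at 19.7, 35.7, 47.6, 15.8 and 33.6 CPM in the control-labelled libraries against 22.6, 100.3, 14.5, 43.7 and 35.9 CPM, so here control-labelled 3 was second highest. Gap43 had the narrowest span of the neuronal members, with 25.4, 29.5, 24.8, 14.2 and 30.3 CPM in the control-labelled libraries and 23.7, 58.0, 12.1, 40.6 and 23.2 CPM in the mutant-labelled ones. The groups overlapped for each of the 5 genes, and the highest library was 4.77 times the lowest for Gap43 and 6.90 to 9.05 times for Elavl3, Stmn2 and Map2.

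The Schwann cell and myelin members were highest in a different library, mutant-labelled 1. Sox10 was at 2.30, 4.32, 2.17, 3.10 and 7.90 CPM in the control-labelled libraries and at 8.40, 4.49, 3.51, 3.27 and 2.47 CPM in the mutant-labelled ones. Mutant-labelled 1 and control-labelled 5 stood together at the top, one from each group, and the other 8 libraries lay between 2.17 and 4.49 CPM. These levels rest on 51 to 187 counts per library.

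Mbp was at 8.70, 11.9, 9.90, 9.55 and 10.6 CPM in the control-labelled libraries and at 23.1, 12.4, 10.2, 10.2 and 11.1 CPM in the mutant-labelled ones. Only mutant-labelled 1 lay well above the rest, and control-labelled 5, high for Sox10, was ordinary for Mbp. S100b was the steadiest member, at 7.66, 7.06, 6.88, 6.12 and 6.92 CPM in the control-labelled libraries and at 10.1, 5.32, 7.35, 6.08 and 5.03 CPM in the mutant-labelled ones. Its highest library was 2.0 times its lowest, against 2.66 times for Mbp and 3.88 times for Sox10.

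**Figure D1:**
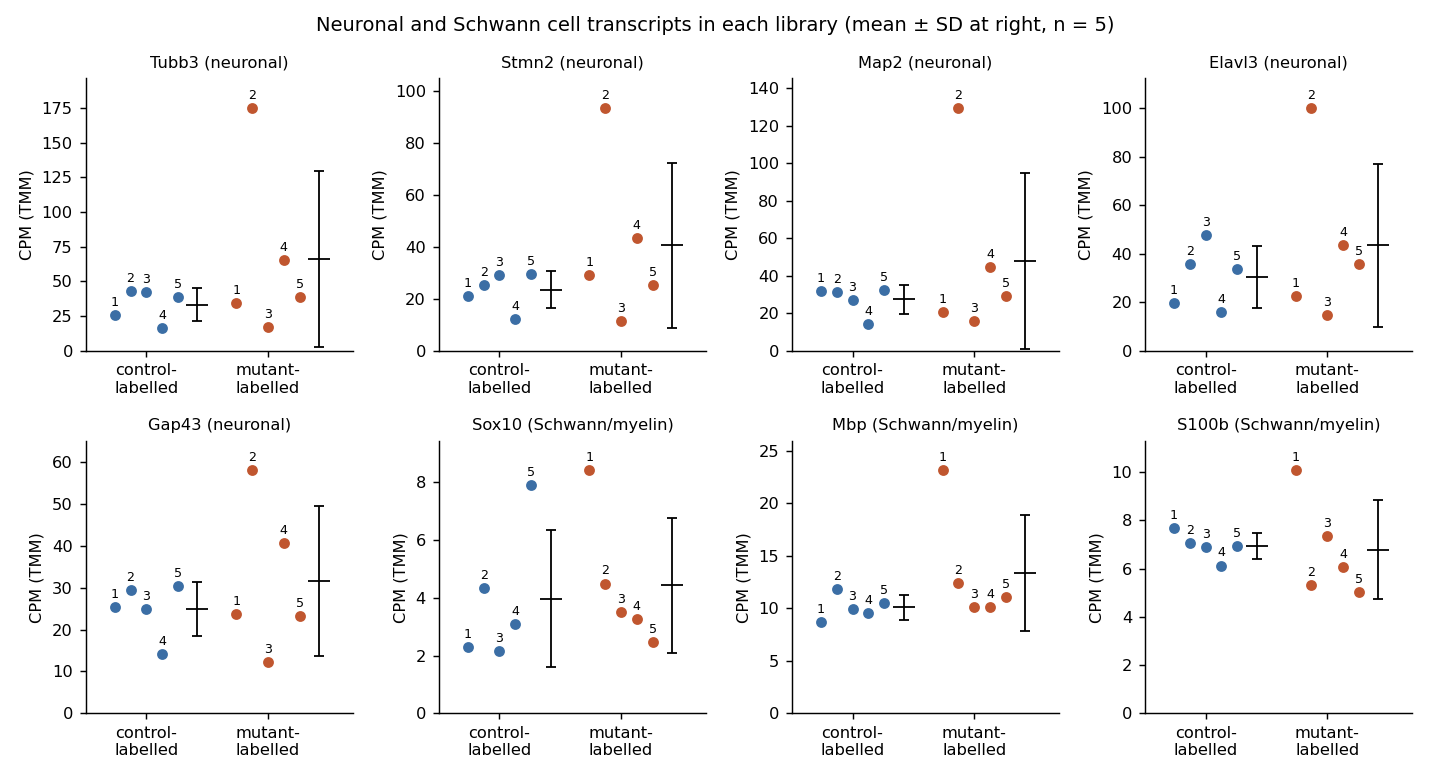
Each panel plots 1 member, with CPM on a linear axis from 0 and 1 point per library labelled with its replicate number; the bar at the right of each group is the mean ± SD (n = 5). Mutant-labelled 2 is the top point of the 5 neuronal panels, at 58.0 to 175 CPM, and mutant-labelled 1 is the top point for Sox10, Mbp and S100b.

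In the GRCm38 assembly with GENCODE M21 annotation, Tubb3 lies on the + strand of chromosome 8 from 123411424 to 123422015 and Stmn2 on the + strand of chromosome 3 from 8509360 to 8561606. Map2 occupies 66175273 to 66442583 of chromosome 1 on the + strand, and Gap43 lies at 42248442 to 42340651 of chromosome 16 on the - strand. Sox10 lies at 79154908 to 79165240 of chromosome 15 on the - strand and Mbp at 82475146 to 82585637 of chromosome 18 on the + strand. Elavl3 lies at 22015005 to 22052023 of chromosome 9 on the - strand and S100b at 76253853 to 76261159 of chromosome 10 on the + strand. Each value is a sum over all exons of a gene. Map2 shares 124 exon bases with Gm10558 on the opposite strand and Elavl3 shares 256 with Gm49318 on its own strand, while the other 6 members share none. Tubb3 counts were whole numbers, to within 0.001, in 1 of 10 libraries, for a reason that was not tested, whereas those of Elavl3, Sox10, Mbp and S100b were whole in all 10.

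Per kilobase of exon, the median level over the 10 libraries was 20.7 CPM for Tubb3 and 16.5 CPM for Gap43. Elavl3, Stmn2 and S100b followed at 5.03, 4.86 and 4.65 CPM per kilobase, and Map2, Mbp and Sox10 were lowest at 1.84, 1.22 and 1.11 CPM per kilobase. The ranges of Tubb3 (8.72 to 93.8) and Gap43 (7.97 to 38.1) overlapped on this scale, as did those of Elavl3, Stmn2 and S100b.

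Summed over the 5 neuronal members, the level was 123.6, 165, 171, 72.8 and 165 CPM in control-labelled 1 to 5 and 130.2, 557, 70.8, 238 and 152 CPM in mutant-labelled 1 to 5. Summed over Sox10, Mbp and S100b it was 18.7, 23.2, 18.9, 18.8 and 25.4 CPM in the control-labelled libraries and 41.6, 22.2, 21.0, 19.5 and 18.6 CPM in the mutant-labelled ones. Mutant-labelled 2 had 3.52 times the median neuronal sum but 1.10 times the median Schwann cell and myelin sum. Conversely, mutant-labelled 1 had 0.822 times the median neuronal sum and 2.05 times the median Schwann cell and myelin sum. The ratio of the Schwann cell and myelin sum to the neuronal sum ran from 0.0399 in mutant-labelled 2 to 0.320 in mutant-labelled 1, so the extremes of all 10 libraries were of 1 group. In bulk tissue, a higher level can come from more cells of a type or from more RNA per cell, which cannot be told apart.

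**Figure D2:**
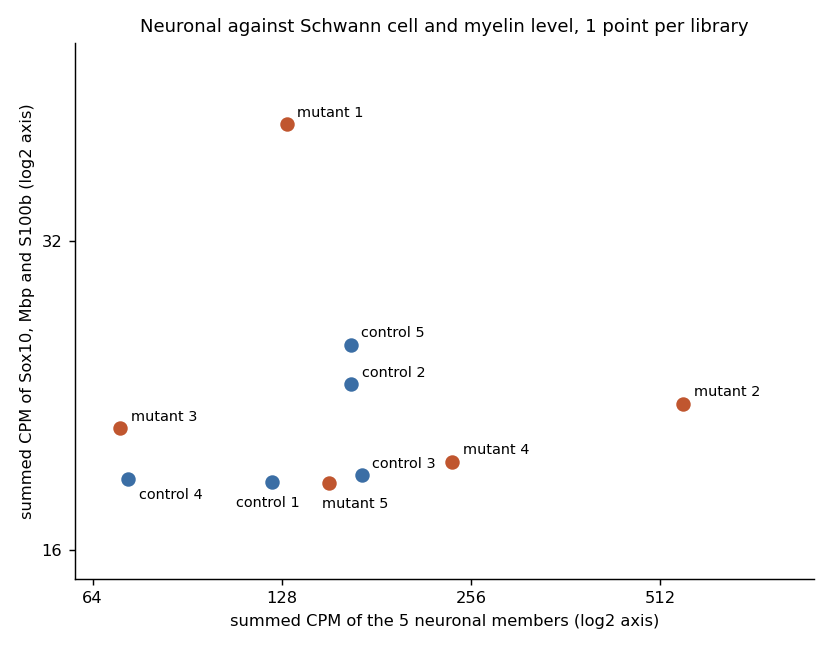
Each point is 1 library, with the summed CPM of the 5 neuronal members on the x axis and of Sox10, Mbp and S100b on the y axis, both on log2 scales; blue points are control-labelled and orange points mutant-labelled. Mutant-labelled 2 lies far right at 557 CPM, mutant-labelled 1 lies at the top at 41.6 CPM, and the other 8 libraries lie between 70.8 and 238 CPM on x and between 18.6 and 25.4 CPM on y.

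Across the 10 libraries the neuronal members moved together. Over log2 CPM, Pearson's r of the 10 neuronal pairs was 0.89 to 0.98 and Spearman's rho 0.65 to 0.94. With Benjamini-Hochberg adjustment over all 28 pairs of members, 10 of the 10 neuronal pairs passed 0.05 by r (adjusted permutation p of 7.47e-04 to 0.00218) and 8 of 10 by rho (0.00532 to 0.126). Without the 2 libraries farthest from the median of the first gene of a pair, r was 0.71 to 0.95, and without mutant-labelled 1 and 2 it was 0.78 to 0.98. With the mean of each group removed, r was 0.89 to 0.98. Counts of 1 library share its depth and its dissection, so the members of a pair are not independent readings of a cell type.

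Between neuronal and Schwann cell or myelin members, r of the 15 pairs was -0.51 to 0.27 and rho -0.62 to 0.48, and none passed the adjusted threshold by a permutation test (lowest adjusted p 0.311 by r and 0.141 by rho). Within the Schwann cell and myelin members, Sox10 and Mbp gave r = 0.70 and rho = 0.77 (adjusted permutation p = 0.0384 and 0.0454). Their r was 0.71 without the 2 farthest libraries but 0.43 without mutant-labelled 1 and 2. Sox10 and S100b gave r = 0.45 and rho = 0.26 (adjusted permutation p = 0.356 and 0.627). Their r was -0.16 without the 2 farthest libraries and 0.20 without mutant-labelled 1 and 2. Mbp and S100b gave r = 0.52 and rho = -0.02 (adjusted permutation p = 0.316 and 0.973), and r was -0.36 once the 2 farthest libraries were left out. In both of these pairs r was below 0 without the 2 farthest libraries.

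The genes whose log2 CPM followed the mean log2 CPM of each set of members most closely were then read from 14477 genes with a mean of at least 1 CPM, members excluded. Nearest to the neuronal members were Rtn1 (r = 0.99), Camk2b, a subunit of a calcium-dependent kinase, Diras1, Adgrb1 and Mapt, the gene of the axonal protein tau (r = 0.99). Mapt was at 14.6 to 48.2 CPM in 8 libraries, at 84.2 CPM in mutant-labelled 4 and at 212 CPM in mutant-labelled 2. Nearest to the Schwann cell and myelin members were Sntb1 (r = 0.95), C1qtnf7, Plekha4 and Mal, a protein of myelin (r = 0.90). The genes named for the first set were all highest in mutant-labelled 2 and those named for the second in mutant-labelled 1. They were picked for following these members over the same libraries, so the shared peak follows from the choice. These r values describe likeness over 10 libraries and were not tested.

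Lists of cell type genes, written by hand, were used to see which other neural genes stood beside the members. Of 30 neuron genes other than the members, 27 were highest in mutant-labelled 2, against 17.9% of all genes tested. Map1b, Tubb2b, Mapt and Nsg1 had the highest mean levels of that list. Tubb2b, a beta-tubulin of young neurons, was at 306 CPM in mutant-labelled 2, at 107 CPM in mutant-labelled 4 and at no more than 85.9 CPM elsewhere. Nsg1 was at 67.0 CPM in mutant-labelled 2 and at 23.7 to 36.9 CPM elsewhere, and Map1b at 476 CPM against 159 to 249 CPM.

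Of 19 cortical neuron genes tested, 9 were highest in mutant-labelled 2, against 17.9% of all genes tested. Those of high mean level included Bcl11b at 17.8 to 42.9 CPM, Nrgn at 13.9 to 31.3 CPM and Camk2a at 12.4 CPM or above, and none of these 3 was highest in mutant-labelled 2. Other genes of the list were named after their values were seen. Neurod6, a transcription factor of cortical projection neurons, was at 62.6 CPM in mutant-labelled 2, at 9.35 CPM in mutant-labelled 4 and at 0.666 to 5.65 CPM elsewhere. Neurod2, a related factor, was at 34.7 CPM in mutant-labelled 2 against 1.02 to 7.57 CPM, and Tbr1 at 22.8 CPM against 0.694 to 8.25 CPM. The other 10 of the 19 genes were not highest in mutant-labelled 2, and Camk2a was at 13.2 CPM there against a median of 13.7 CPM. The part of brain tissue in the members' levels was not tested.

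The other 3 neuron genes, Nefl, Nefm and Nefh, were highest in mutant-labelled 1 and were named after their values were seen. They encode the neurofilament subunits of large-calibre axons. Nefl was at 54.8 CPM in mutant-labelled 1 and at 3.02 to 7.66 CPM in the other 9 libraries, Nefm at 45.4 CPM against 2.47 to 9.57 CPM, and Nefh at 8.67 CPM against 0.240 to 0.760 CPM. Of 8 sensory and autonomic neuron genes tested, 4 were highest in mutant-labelled 1, against 10.3% of all genes tested. Runx3, Prph, Avil and Scn9a had the highest mean levels of that list. Runx3, which bone also expresses, was at 14.5 to 18.4 CPM and set no library apart. Prph, the intermediate filament of peripheral neurons, was at 24.1 CPM in mutant-labelled 1 and at 1.15 to 4.29 CPM elsewhere, and Avil, an actin-binding protein of sensory neurons, at 9.51 CPM against 1.86 to 3.70 CPM. Scn9a, a sodium channel of pain-sensing neurons, was highest in control-labelled 3 at 8.58 CPM, with 5.94 CPM in mutant-labelled 1. Also named after its values were seen, P2rx3, an ATP-gated channel of sensory neurons, was at 3.43 CPM in mutant-labelled 1 and at most 0.444 CPM elsewhere. The other 4 genes tested were not highest in mutant-labelled 1, where the 5 neuronal members stood at 0.822 times their median sum.

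Of 21 Schwann cell genes tested, 11 were highest in mutant-labelled 1, 3 in control-labelled 5, 3 in control-labelled 2 and 2 in mutant-labelled 2. Of all genes tested, 10.3%, 9.77%, 8.22% and 17.9% were highest in these libraries. Pmp22, Sema3b, Fabp7 and Cnp had the highest mean levels. Pmp22, a myelin protein that many tissues express, was at 95.4 to 125 CPM and set no library apart, and Sema3b was at 27.5 to 44.4 CPM. Cnp, an enzyme of myelin, was at 21.2 CPM in mutant-labelled 1 and at 12.7 to 15.1 CPM elsewhere. Fabp7, a lipid-binding protein of immature Schwann cells and of radial glia, was highest in control-labelled 5 at 39.7 CPM. Erbb3, a receptor that Schwann cells need, was named after its values were seen, and reached 9.69 CPM in mutant-labelled 1, 7.30 CPM in control-labelled 5 and 2.51 to 6.13 CPM elsewhere. Foxd3, a transcription factor of neural crest and Schwann cell precursors and chosen likewise, reached 3.29 and 2.96 CPM in the same libraries and 0.221 to 2.19 CPM elsewhere. Other genes of the list had another library second, such as Ngfr, likewise named after its values were seen, at 24.5 CPM in mutant-labelled 1, 12.2 CPM in control-labelled 2 and 8.32 CPM in control-labelled 5.

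**Figure D3:**
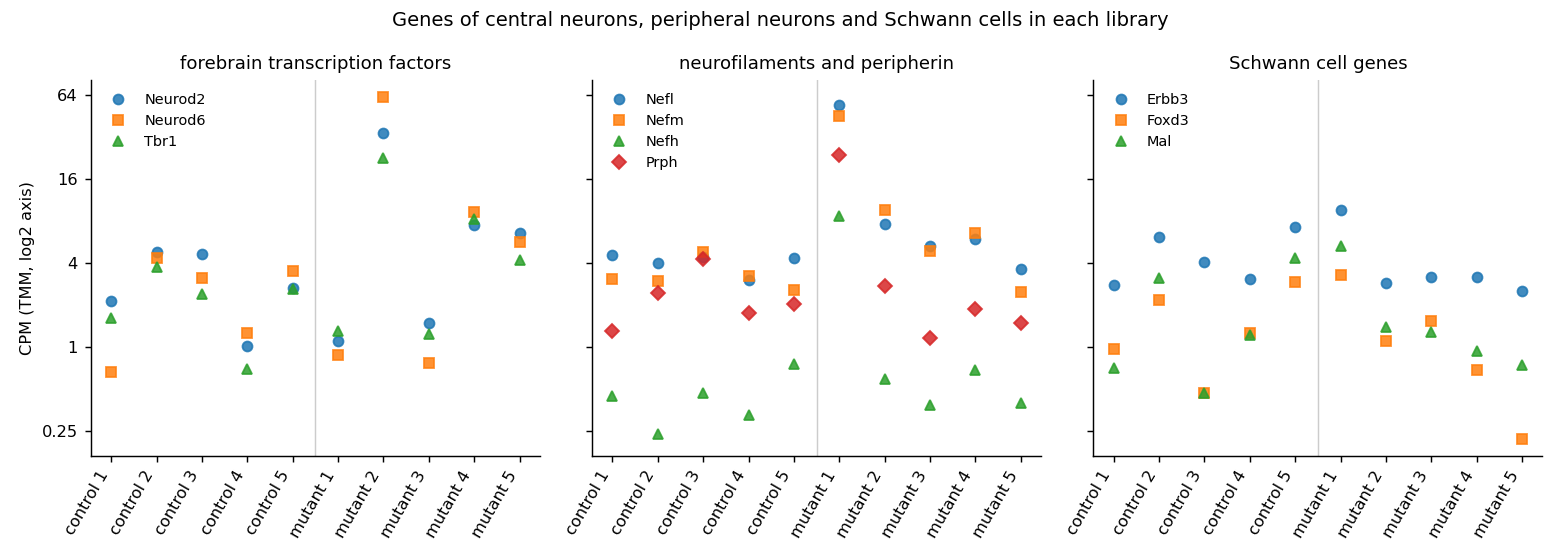
CPM on a log2 axis is plotted for Prph and Mal, named by rule, and for other genes chosen after their values were seen, in 3 panels (forebrain transcription factors, neurofilaments and peripherin, Schwann cell genes), with the 10 libraries on the x axis and 1 symbol per gene. The forebrain genes peak in mutant-labelled 2 at 22.8 to 62.6 CPM, the neurofilaments and peripherin in mutant-labelled 1 at 8.67 to 54.8 CPM, and the Schwann cell genes are highest in mutant-labelled 1, followed by control-labelled 5.

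Genes of other cells were read in the same way. Of 11 genes of astrocytes and oligodendrocytes, 6 were highest in mutant-labelled 2 and 0 in mutant-labelled 1, against 17.9% and 10.3% of all genes tested. The most abundant of them, Slc1a3, a glutamate transporter, was highest in mutant-labelled 3 at 35.4 CPM, with 32.8 CPM in mutant-labelled 2 and 23.1 to 31.7 CPM elsewhere. Cspg5 was at 15.9 CPM in mutant-labelled 2 and 4.57 to 11.3 CPM elsewhere, Slc1a2 at 6.91 CPM against 1.67 to 5.65 CPM, and Gpr17 was highest in control-labelled 1 at 3.92 CPM. Melanocytes also express Sox10. Of their genes, Mitf, which other cells also make, was at 6.21 to 10.6 CPM and Pmel at 0.817 to 2.74 CPM. Dct was at most 0.684 CPM and Trpm1 at most 0.428 CPM in any library. Skeletal muscle genes summed to 997 CPM in mutant-labelled 1 and 954 CPM in control-labelled 2, against 26.8 to 196 CPM in the other 8. Of 11 chondrocyte genes, whose cells also make S100b, 7 were highest in mutant-labelled 2 and 1 in mutant-labelled 1, against the same 17.9% and 10.3%. The 2 most abundant were not among the 7. Col11a2 was lowest in mutant-labelled 2, at 824 CPM against 945 to 1323 CPM elsewhere, and Acan was at 189 CPM there within a range of 179 to 247 CPM. Col2a1, the main collagen of cartilage, was at 153 CPM in mutant-labelled 2, 123 CPM in mutant-labelled 1 and 70.6 to 94.7 CPM in the other mutant-labelled libraries, all above the 47.2 to 68.5 CPM of the control-labelled ones. The list had a median difference of 0.35 log2 units, and of 0.12 without mutant-labelled 1 and 2. In both, 4 of 11 genes had an unadjusted p under 0.05 on the higher side and 0 an adjusted one in edgeR. With all 10 libraries, 3.68% of all genes had such an unadjusted p on that side. The summed osteoblast genes were lowest in mutant-labelled 2, at 0.718 times the median library. Col1a1 was at 48527 CPM there and at up to 71193 CPM elsewhere, and Ibsp, a bone matrix protein, at 826 CPM against 986 to 1924 CPM. The osteoblast list had a median difference of -0.33 log2 units between groups and of -0.29 without mutant-labelled 2. In both, 8 of 13 genes had an unadjusted p under 0.05 on the lower side in edgeR. With all 10 libraries, 3.82% of all genes had one on that side. The share of these cells in the members' levels was not tested.

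**Figure D4:**
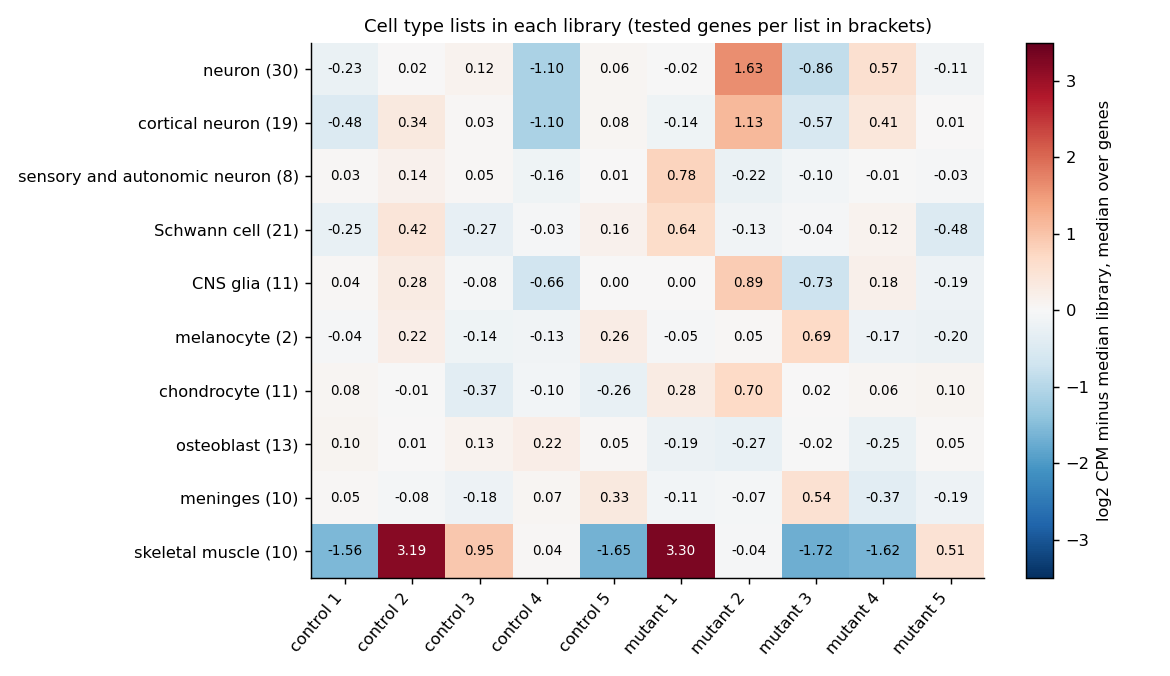
For each cell type list (rows, tested genes in brackets) and library (columns), the colour and number give the median over genes of log2 CPM minus the gene's median library. The neuron and cortical neuron lists reach 1.63 and 1.13 in mutant-labelled 2 and -1.10 in control-labelled 4, the sensory and autonomic and Schwann cell lists reach 0.78 and 0.64 in mutant-labelled 1, and skeletal muscle reaches 3.30 there and 3.19 in control-labelled 2.

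Between groups, no member passed the test. By edgeR's quasi-likelihood test, 0 of 8 members had an adjusted p under 0.05, against 0.0184% of all genes tested, and 0 of 8 had an unadjusted p under 0.05, against 7.49%. For 0 of 8 did the groups not overlap, against 1.49%. The fitted difference was above 0 for 7 members and below 0 for S100b, with 50.3% of all genes above 0.

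Tubb3 averaged 33.2 ± 11.8 CPM (SD, n = 5) in the control-labelled and 66.1 ± 63.5 CPM in the mutant-labelled libraries, a difference of 0.99 log2 units with an SE of 0.53 (adjusted p = 0.687, edgeR). Stmn2 averaged 23.4 ± 7.14 and 40.6 ± 31.7 CPM (0.80, SE 0.45), Map2 27.4 ± 7.61 and 48.1 ± 47.0 CPM (0.81, SE 0.50), Elavl3 30.5 ± 12.9 and 43.4 ± 33.7 CPM (0.51, SE 0.46) and Gap43 24.9 ± 6.42 and 31.5 ± 17.9 CPM (0.34, SE 0.35). The mutant-labelled SD was above the control-labelled SD for all 5. Sox10 averaged 3.96 ± 2.36 and 4.43 ± 2.33 CPM (0.16, SE 0.40), Mbp 10.1 ± 1.18 and 13.4 ± 5.52 CPM (0.40, SE 0.21) and S100b 6.93 ± 0.55 and 6.77 ± 2.05 CPM (-0.04, SE 0.17). Adjusted p over the 8 members was 0.687 to 0.976 in edgeR, and two-sided exact permutation tests over the 252 ways to split the libraries gave 0.151 to 0.889, where the smallest possible p is 0.00794. These values do not show that the groups are alike, since 1 SE for Tubb3 is 0.53 log2 units.

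Without mutant-labelled 2, the difference fell to 0.23 log2 units for Tubb3 and for Stmn2, 0.02 for Map2, 0.0093 for Gap43 and -0.06 for Elavl3. Without mutant-labelled 1 it was -0.19 for Sox10, 0.13 for Mbp and -0.21 for S100b. With both left out it was 0.03 to 0.29 for the neuronal members, -0.35 for Sox10, 0.06 for Mbp and -0.16 for S100b. The mean neuronal sum of the mutant-labelled libraries was 230 ± 193 CPM with all 5 and 148 CPM without mutant-labelled 2, against 139 ± 41.8 CPM in the control-labelled libraries.

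**Figure D5:**
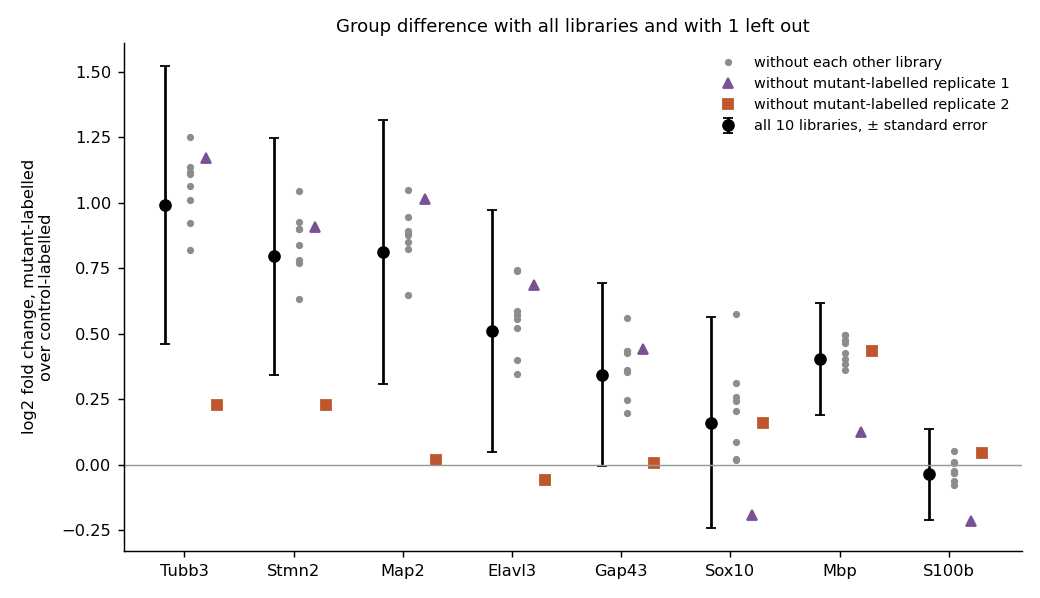
For each member (x axis), the black point and bar give the log2 difference of mutant-labelled over control-labelled with its SE over all 10 libraries, and the other symbols give the difference with 1 library left out. The neuronal members drop to between -0.06 and 0.23 without mutant-labelled 2, and Sox10, Mbp and S100b move down to between -0.21 and 0.13 without mutant-labelled 1.

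The wider lists had the same dependence. All 30 neuron genes had fitted differences above 0, of which 5 had an unadjusted p under 0.05 in edgeR, against 3.68% of all genes in that direction, and 0 an adjusted one. The median of the list was 0.64 log2 units against 7.35e-04 over all genes. Without mutant-labelled 2 the count above 0 was 22 of 30 and the median 0.12, and without mutant-labelled 1 and 2 it was 23 of 30 and 0.12. For the 19 cortical neuron genes the median was 0.46 with all libraries and -3.31e-04 without mutant-labelled 2. For the 21 Schwann cell genes 9 were above and 12 below 0 (median -0.02). In edgeR 1 had an unadjusted p under 0.05 in each direction, against 3.68% of all genes higher and 3.82% lower. Without mutant-labelled 1 they were 5 above and 16 below (median -0.21). The 8 sensory and autonomic neuron genes had a median of 0.15 with all libraries and -0.03 without mutant-labelled 1.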

How the data were processed

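RNA of the 10 AF samples was made into stranded libraries and sequenced as single reads of 50 bases. The authors deposited 1 table of estimated counts per gene, not scaled between libraries. The submitters' notes name Partek and mm10, and no counting tool or strand setting was given in the sources used here. Positions of 22296 of 22533 matched symbols were those of GENCODE M21, with each listed end 1 base past the annotated end. Here, estimated counts were rounded, filtered by edgeR 4.0.16 (16267 genes kept, 6813 not), scaled by TMM and compared by its quasi-likelihood test in R 4.3.3, with Benjamini-Hochberg adjustment over all genes tested and a threshold of 0.05. CPM values are TMM-scaled and log2 CPM used a prior count of 0.5. The sources used here speak of littermate pairs but do not say which libraries form a pair, so libraries were not paired. Named genes were the members, the 4 genes of highest mean level in each list, the 5 genes most like each set of members, and those said to be chosen after their values were seen. Members and lists were chosen with earlier results of these data known. Alternatives were library size alone, DESeq2 1.42.0 size factors and Wald test, no filter on low counts, no ribosomal RNA gene, a replicate block and leaving out each library. Leaving out mutant-labelled 1 and 2 together was added after the data were seen. Some genes that this rule names are not reported here.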

Additional observations from a re-analysis of the deposited data

Results flagged for a closer look

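Each member, each sum over members and each cell type list was read for a library at the top or bottom of its group of 5 whose gap to its nearest neighbour was over 0.71 of the group's range (Dixon's test). Of 40 groups tested, 10 had one. The rate of about 1 in 20 by chance holds for independent, normally distributed values. These CPM values were not log-transformed and the sums repeat their members, so the count cannot be set against that rate. Of the members, Map2 stood apart in mutant-labelled 2 at 129.7 CPM (15.7 to 44.9 CPM in the other 4 of its group), and Mbp in mutant-labelled 1 at 23.1 CPM (10.2 to 12.4 CPM). The sum of Sox10, Mbp and S100b stood apart in mutant-labelled 1 at 41.6 CPM against 18.6 to 22.2 CPM. The summed cortical neuron list was at 450.1 CPM in mutant-labelled 2 against 207 to 262 CPM. The summed sensory and autonomic neuron list was at 81.1 CPM in mutant-labelled 1 against 28.6 to 33.0 CPM, and at 42.1 CPM in control-labelled 3 against 30.7 to 33.4 CPM. Skeletal muscle genes summed to 997 CPM in mutant-labelled 1 against 29.3 to 175 CPM, and to 954 CPM in control-labelled 2 against 26.8 to 196 CPM. The summed osteoblast list was at 99851 CPM in control-labelled 2 against 112472 to 117305 CPM, a sum that rests mainly on Col1a1 and Col1a2, while the median gene of the list stood at 0.011 log2 units from its median library there. The summed meninges list was high in mutant-labelled 3, at 319 CPM against 189 to 208 CPM.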

How the results depend on the processing

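Over 17 alternatives for each of the 8 members, none of the 136 fits gave an adjusted p under 0.05 (lowest 0.562), and 129 kept the direction. With 1 library left out at a time, the log2 difference ranged from -0.057 to 0.74 for Elavl3, reversed without mutant-labelled 2, and from -0.19 to 0.58 for Sox10, reversed without mutant-labelled 1. For S100b it ranged from -0.21 to 0.054, above 0 without control-labelled 1 or without mutant-labelled 2, 4 or 5. With mutant-labelled 1 and 2 left out together, an alternative added after the data were seen, Sox10 was at -0.35. The cause was not tested. Over all genes, 3 passed the adjusted threshold. The count was 1 by library size alone, 1 without the ribosomal RNA gene and 95 by DESeq2's Wald test, of which none was a member. It was 1 to 6 with 1 library left out, 6 without mutant-labelled 2, and 5 without mutant-labelled 1 and 2. The labels do not say what a replicate number stands for. Same-numbered libraries correlated at -0.21 to 0.14, which does not show that the libraries hold no littermate pairs. With the replicate number as a block, the count was 1 and Tubb3 was at 0.65. Group means of the sums and of their ratio moved by less than 1 SD. Leaving out 1 or 2 of 5 libraries cannot move a mean by 1 SD, so this does not show that the means are steady. The mutant-labelled mean of the neuronal sum was 230 CPM with all 5 libraries and 148 CPM without mutant-labelled 2. Sox10 rests on 51 to 187 counts and S100b on 114 to 217 counts per library, so counting error adds to their spread.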

Other observations

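Beyond neural genes, skeletal muscle and meninges genes also varied by library. Acta1, the actin of skeletal muscle, reached 234 CPM in control-labelled 2, 209 CPM in mutant-labelled 1 and 4.34 to 52.5 CPM elsewhere. Myh8, a myosin of newborn muscle, was at 189 and 234 CPM in those libraries and at 1.85 to 31.5 CPM elsewhere. Of 10 muscle genes tested, 0 passed the adjusted threshold in edgeR and 0 had an unadjusted p under 0.05, against 0.0184% and 7.49% of all genes tested. Ptgds, an enzyme abundant in the leptomeninges, was at 60.2 CPM in mutant-labelled 3 and at 6.68 to 28.4 CPM elsewhere. Foxc1, the most abundant of the list, was highest in control-labelled 5 at 84.4 CPM, with 80.9 CPM in mutant-labelled 3. Of the 10 meninges genes, 3 were highest in control-labelled 5 and 1 in control-labelled 2, against 9.77% and 8.22% of all genes tested. Mutant-labelled 3 was at the same time the lowest library for the neuronal sum, at 70.8 CPM. Of 10 meninges genes, 0 passed the adjusted threshold in edgeR and 1 had an unadjusted p under 0.05, with a lower level in the mutant-labelled libraries, against 3.82% of all genes on that side.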
